A study of Mus musculus with 20 samples.

Results

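The 31 genes described here encode the machinery of fatty acid oxidation together with its regulators PPAR alpha (Ppara) and PGC-1 alpha (Ppargc1a), in mouse kidneys. They were taken by gene symbol from a list of the pathway, and all 31 were found among the 26608 genes of a table of LOY and Control kidneys and among the 30809 genes of a table of drug-treated LOY kidneys. RNA was sequenced from whole kidneys of aged mice after bone marrow transplantation. LOY, the loss of the Y chromosome, is an acquired change of blood cells in ageing men, and the transplants were made to give the mice a LOY or a Control blood system. The first table held 6 LOY kidneys (animals 5, 8, 9, 10, 14 and 18) and 6 Control kidneys (animals 3, 11, 12, 13, 16 and 17). The second held 4 kidneys of LOY animals given ABT263 (animals 15, 16, 17 and 18) and 4 of LOY animals given a control compound (animals 6, 8, 9 and 10). Numbers 8, 9, 10, 16, 17 and 18 occur in both tables under different groups. The labels do not say whether any of these are the same animals. ABT263, or ABT-263 (navitoclax), blocks anti-apoptotic BCL-2 family proteins and is used as a senolytic, a compound that kills senescent cells. Every animal of the second table carried the LOY blood system, so that comparison has no animal with a Control blood system. How the Y chromosome was lost in the donor cells, the share of blood cells that lacked it, the ages of the mice and the dose of ABT-263 are not stated in the labels. Each library came from 1 animal, and values are CPM, which are counts scaled to the size and composition of each library. Because whole kidney was sequenced, fewer cells of a type and less RNA per cell cannot be told apart.

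Fatty acid oxidation is the main fuel supply of the proximal tubule, the mitochondria-rich first segment of the nephron. Fatty acids are activated to acyl-CoA, carried into mitochondria on carnitine and shortened by a repeating cycle of dehydrogenation, hydration, dehydrogenation and thiolysis, and the electrons pass through the electron transfer flavoprotein. Peroxisomes shorten the longest and branched chains, and PPAR alpha, a nuclear receptor that pairs with RXR, switches on many genes of both compartments with PGC-1 alpha as a coactivator.

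Promoters of 27 of the 31 genes were matched in RefSeq (GRCm38.p6), each a window of 250 bases before and 50 after the start of transcription, 30 windows in all. The nuclear receptor core motif AGGTCA, on either strand, lay in 4 of the 30 windows (13.3%), those of Acadm, Acadvl, Cpt1a and Echs1, and in 16.3% of all 32851 promoter windows. The direct repeat AGGTCANAGGTCA, which contains the core motif, was in 0 of the 30 windows and in 13 of all windows (0.0396%). The GC box GGGCGG, on either strand, was in 19 of the 30 windows (63.3%) against 35.7% of all. Cpt1a is shown because it had the largest difference between LOY and Control kidneys, and Acadm because it encodes the classic medium-chain enzyme of the pathway, both with the core motif in capitals (TGACCT when read from the other strand). Hadhb is shown with its GC boxes in capitals because it stands head to head with Hadha. Only 85 bases lie between these 2 genes in GENCODE M21, and their products form 1 enzyme complex. Their promoter windows, set from RefSeq starts that differ from the GENCODE ones, share 228 bases. The window of Cpt1a lies at chr19:3323051-3323350 on the plus strand, that of Acadm at chr3:153944594-153944893 on the minus strand and that of Hadhb at chr5:30155003-30155302 on the plus strand. The Cpt1a window follows a RefSeq start that lies inside the GENCODE span of the gene given below. A match to these letters is a description of the sequence and not evidence of binding.
Cpt1a: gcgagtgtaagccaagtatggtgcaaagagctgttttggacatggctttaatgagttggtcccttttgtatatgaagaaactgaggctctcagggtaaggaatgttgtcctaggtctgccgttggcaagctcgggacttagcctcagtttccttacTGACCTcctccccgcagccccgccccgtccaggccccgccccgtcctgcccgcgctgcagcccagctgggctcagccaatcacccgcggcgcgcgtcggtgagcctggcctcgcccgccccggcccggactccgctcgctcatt
Acadm: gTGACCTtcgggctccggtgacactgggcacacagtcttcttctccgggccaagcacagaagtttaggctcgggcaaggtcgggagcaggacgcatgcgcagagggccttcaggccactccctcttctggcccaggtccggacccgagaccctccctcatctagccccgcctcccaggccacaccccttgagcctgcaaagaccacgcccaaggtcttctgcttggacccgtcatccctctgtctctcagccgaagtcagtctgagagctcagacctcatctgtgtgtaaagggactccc
Hadhb: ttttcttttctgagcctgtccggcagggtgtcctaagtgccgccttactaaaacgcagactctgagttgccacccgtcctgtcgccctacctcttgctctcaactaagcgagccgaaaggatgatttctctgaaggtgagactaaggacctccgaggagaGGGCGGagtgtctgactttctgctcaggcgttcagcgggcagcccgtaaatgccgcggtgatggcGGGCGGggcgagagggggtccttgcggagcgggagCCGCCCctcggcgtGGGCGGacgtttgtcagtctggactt

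Gene counts per kidney summed to between 13403998 and 19386408 in LOY and between 13332563 and 17356307 in Control kidneys. With ABT263 they summed to between 14587809 and 19461618, and with the control compound to between 16888322 and 20791633. All 20 markers of the proximal tubule and all 8 of the loop of Henle and distal nephron passed the filter on low counts in both tables. The tables were counted apart by the authors and differ in their gene sets, and groups were tested against each other only within a table. Where the level of a gene is given for both tables, this is a description. Pex11a, which divides peroxisomes, had at most 1.02 CPM in the first table and at least 53.3 CPM in the second.

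The first comparison sets kidneys under a LOY blood system against kidneys under a Control one. The fatty acid oxidation genes lay mostly lower in LOY than in Control kidneys, by small amounts that did not pass the test. Of 30 tested genes 28 had a negative log2 fold change, against 47.7% of all 14978 genes tested, and 2 a positive one, against 52.3%. Their median was -0.26, against 0.02 for all genes. The largest differences were in Cpt1a, Acsl1, Ppara and Ehhadh. LOY animal 8 or 10 was the lowest of all kidneys for 27 of the 30 genes, a count not made over all tested genes. Pex11a did not pass the filter on low counts.

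By edgeR's quasi-likelihood test with Benjamini-Hochberg adjustment, 0 of the 30 genes passed an adjusted p of 0.05 in either direction, where 1.18% of all tested genes did (1.11% rose and 0.0601% fell). At an unadjusted p under 0.05, 13 of the 30 genes stood out, against 22.8% of all tested genes, and all 13 were lower in LOY kidneys. DESeq2 called 0 of the 30 genes, where it called 5.9% of all genes with an adjusted p (1.82% lower). Limma's voom with sample quality weights called 2 of the 30, Acsl1 and Cpt1a, both lower, where it called 7.09% of all tested genes (2.49% lower). For 1 gene, Hadha, every LOY kidney lay below every Control kidney, against 0.461% of all tested genes (1.56% were higher without overlap, and 0 of the 30 genes).

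Per length of transcript, the most abundant of the genes in Control kidneys were Etfb at 539 ± 73.1 CPM per kb, Acadm at 357 ± 13.1 CPM per kb and Acaa1b at 351 ± 22.1 CPM per kb (SD, n = 6). In LOY kidneys the level per length was 691 ± 354 CPM per kb for Etfb, 303 ± 68.2 CPM per kb for Acadm and 289.5 ± 74.0 CPM per kb for Acaa1b (SD, n = 6). The place of Etfb depended on the table: in the control compound kidneys of the second table it ranked 24 of the 31 genes at 36.6 ± 4.06 CPM per kb (SD, n = 4), and Acadm ranked 1. Acadvl ranked 8 in Control kidneys of the first table and 19 in the control compound kidneys of the second. The regulators were among the lowest, with Ppargc1a at 7.67 ± 2.35 CPM per kb in LOY and 10.8 ± 3.03 CPM per kb in Control kidneys. The SD of Acadm and Acaa1b was wider among LOY than among Control kidneys, which was not tested.

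**Figure D1:**
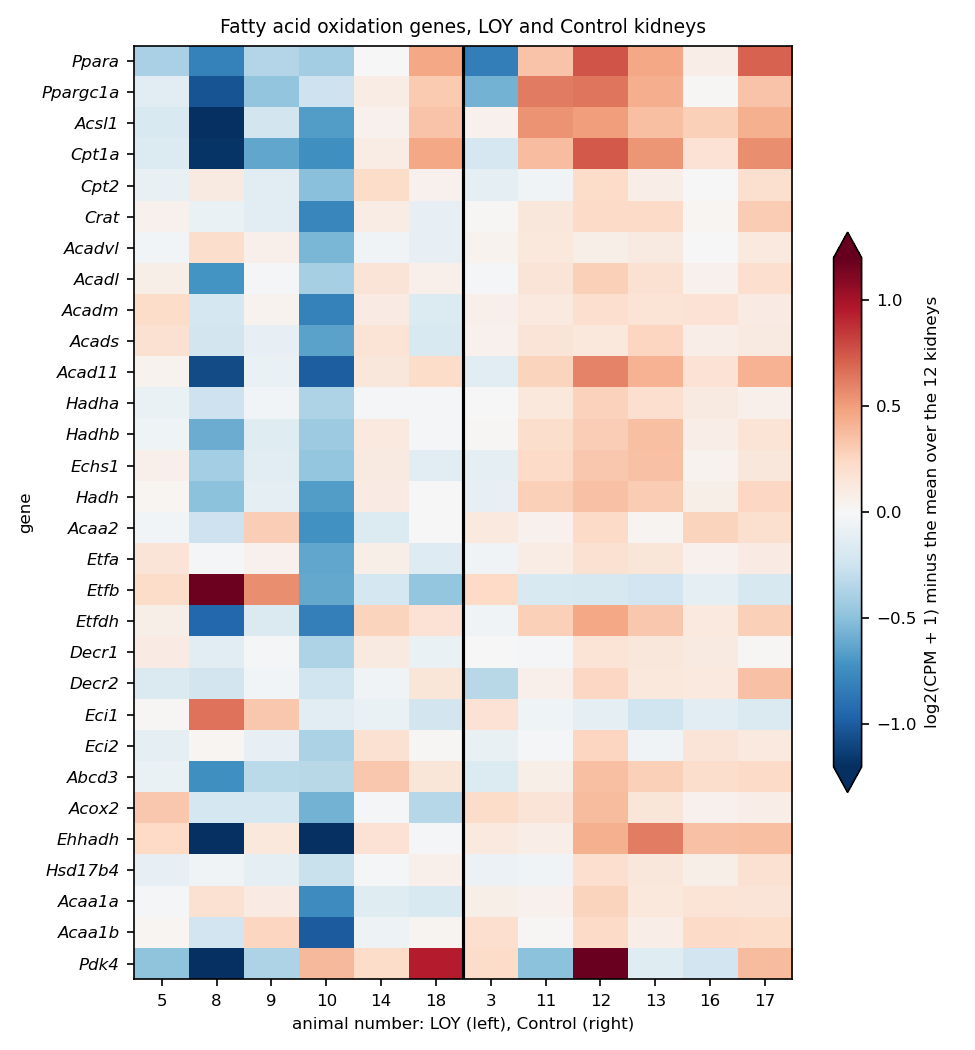
Deviation of each of the 30 tested genes from its own mean in the 6 LOY (left of the line) and 6 Control kidneys (right), as log2(CPM + 1), blue below and red above the mean over the 12 kidneys. LOY animals 8 and 10 hold most of the darkest blue cells, and Ppara and Ppargc1a are below their means in Control animal 3. Etfb, Eci1 and Acadvl have their highest value of the 12 kidneys in LOY animal 8.

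Both regulators were lower on average in LOY kidneys. Ppara (chromosome 15, 85734983 to 85802819, plus strand, GRCm38), the receptor itself, had a lowest, median and highest level of 60.2, 82.2 and 148 CPM in LOY kidneys and 59.4, 141 and 180.0 CPM in Control kidneys. The LOY range lay inside the Control range: Control animal 3 was the lowest of all 12 kidneys, and LOY animal 18 was above the Control median. The log2 fold change of Ppara was -0.54 ± 0.25 (SE; edgeR adjusted p = 0.216). Ppargc1a, the coactivator that drives mitochondrial gene expression, had 27.1, 49.4 and 70.8 CPM in LOY kidneys and 37.9, 74.2 and 88.9 CPM in Control kidneys (lowest, median, highest). LOY animal 8 was the lowest and Control animal 3 lay below 5 of the 6 LOY kidneys. Its log2 fold change was -0.50 ± 0.23 (adjusted p = 0.210).

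The genes that activate fatty acids and bring them into mitochondria held the 2 largest differences. Acsl1, the long-chain acyl-CoA synthetase, had 46.9, 115 and 168 CPM in LOY kidneys and 137, 174 and 192 CPM in Control kidneys (lowest, median, highest). Of the LOY kidneys 5 lay below every Control kidney, and LOY animal 18 lay within the Control range. The log2 fold change of Acsl1 was -0.63 ± 0.22 (adjusted p = 0.150, and 0.0208 to 0.705 over the alternatives). Cpt1a (chromosome 19, 3322334 to 3385733, plus strand, GRCm38) encodes the carnitine palmitoyltransferase of the outer membrane, the rate-limiting entry step. It had 187, 327 and 587 CPM in LOY kidneys and 369, 580.2 and 707 CPM in Control kidneys (lowest, median, highest), with LOY animal 8 lowest and Control animal 12 highest. Cpt1a had the largest difference of the genes, -0.65 ± 0.24 on the log2 scale (adjusted p = 0.164, and 0.0435 to 0.766 over the alternatives). Crat, the carnitine acetyltransferase, was at -0.30 ± 0.13 (adjusted p = 0.206). Cpt2, which releases acyl-CoA from carnitine inside the mitochondrion, was at -0.10 ± 0.12 (adjusted p = 0.604).

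**Figure D2:**
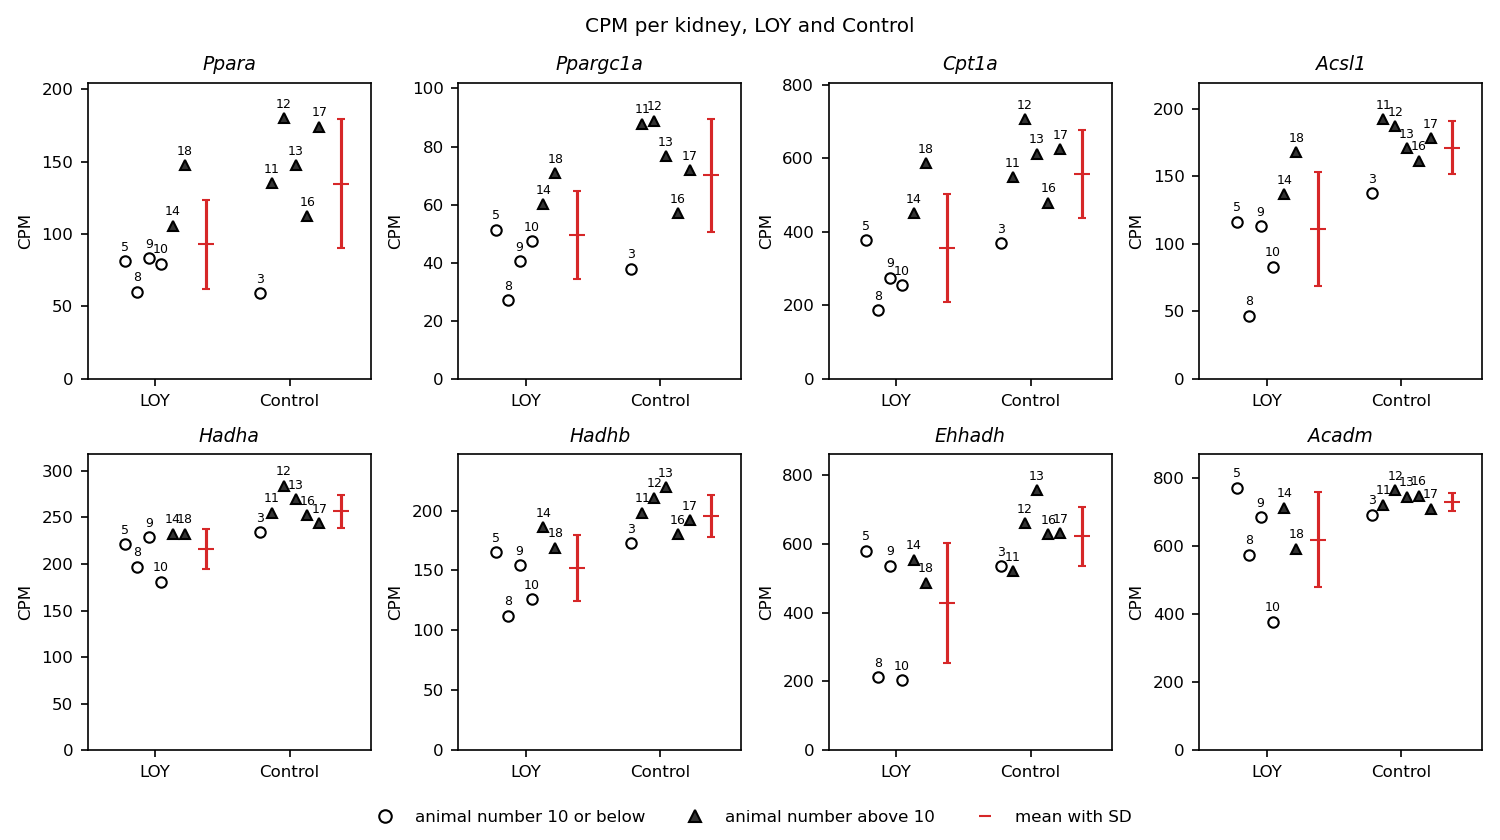
CPM per kidney of 8 of the genes in LOY (left) and Control kidneys (right), each axis starting at 0, with animal numbers beside the points, open circles for animals numbered 10 or below, filled triangles for animals above 10 and a red bar for the mean with its SD (n = 6). For Ppara, Ppargc1a and Cpt1a every open circle lies below every triangle, and for Hadha every LOY kidney lies below every Control kidney.

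The 5 acyl-CoA dehydrogenases, which take the first electrons from the chain, had log2 fold changes of -0.51 to -0.13. Acad11, which acts mainly on very long chains, had 90.9, 191 and 225 CPM in LOY kidneys and 176, 245 and 293 CPM in Control kidneys (lowest, median, highest). LOY animals 8 and 10 lay far below all the others and the remaining LOY kidneys overlapped the Control kidneys. Its log2 fold change was -0.51 ± 0.22 (adjusted p = 0.194). Acadm, the medium-chain dehydrogenase, had 379, 640.1 and 773 CPM in LOY kidneys and 694, 734 and 765 CPM in Control kidneys (lowest, median, highest). LOY kidneys held both the lowest value, in animal 10, and the highest, in animal 5, and the log2 fold change was -0.24 ± 0.15 (adjusted p = 0.326). The long-chain Acadl (-0.26 ± 0.14), the short-chain Acads (-0.24 ± 0.13) and the very-long-chain Acadvl (-0.13 ± 0.12) had adjusted p of 0.275, 0.263 and 0.480. Acadvl shares 42.9% of its exon length with Dvl2 on the opposite strand, and the strand setting of the counting is not given, so reads of the 2 genes may not be told apart.

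The 5 genes of the later steps of the mitochondrial cycle had log2 fold changes of -0.37 to -0.25, and 4 of them had an unadjusted p under 0.05. Hadha (chromosome 5, 30118304 to 30155162, minus strand, GRCm38), the alpha subunit of the trifunctional protein, had 181, 225 and 233 CPM in LOY kidneys and 234, 254 and 284 CPM in Control kidneys (lowest, median, highest). The groups did not overlap, but the highest LOY kidney and the lowest Control kidney, animals 14 and 3, lay next to each other. The log2 fold change of Hadha was -0.25 ± 0.10 (adjusted p = 0.169).

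Hadhb, the thiolase subunit of the same complex, had 112, 159.7 and 186 CPM in LOY kidneys and 173, 195 and 219 CPM in Control kidneys (lowest, median, highest). Only LOY animal 14 reached the Control range, and the log2 fold change was -0.36 ± 0.12 (adjusted p = 0.143, the lowest of the 30 genes). Hadh, the short-chain hydroxyacyl-CoA dehydrogenase, had 250.3, 383 and 427 CPM in LOY kidneys and 371, 480.2 and 509.8 CPM in Control kidneys (lowest, median, highest). LOY animals 8 and 10 were the lowest, Control animals 3 and 16 lay inside the LOY range, and the log2 fold change was -0.37 ± 0.14 (adjusted p = 0.170). Echs1, the short-chain enoyl-CoA hydratase, had 161, 203 and 241 CPM in LOY kidneys and 205, 253 and 285 CPM in Control kidneys (lowest, median, highest). Of the LOY kidneys 4 lay below every Control kidney, and the log2 fold change was -0.32 ± 0.12 (adjusted p = 0.173). The thiolase Acaa2 was at -0.27 ± 0.14 (adjusted p = 0.255).

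The electron transfer flavoprotein passes electrons from the dehydrogenases to the respiratory chain, and its 3 genes differed among themselves. Etfdh, its membrane oxidoreductase, was at -0.42 ± 0.19 on the log2 scale (adjusted p = 0.219), and the subunit gene Etfa at -0.16 ± 0.12 (adjusted p = 0.438). The other subunit gene, Etfb, had the highest positive value of the 30 genes, 0.36 ± 0.26 (adjusted p = 0.393). It ran from 338 to 1174 CPM in LOY kidneys and from 441 to 613 CPM in Control kidneys, with LOY animal 8 highest. Of the exon length of Etfb 53.0% overlaps the predicted gene Gm45233 on the same strand, so its counts may depend on how shared reads were assigned. No gene of the name Gm45233 was found in either table, and whether it took part in the counting is not known.

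Of the 4 auxiliary enzymes that prepare unsaturated chains, Eci1 was the other gene with a positive value, 0.21 ± 0.14 (adjusted p = 0.363), and LOY animal 8 was again the highest. The isomerase Eci2 was at -0.12 ± 0.11, the mitochondrial reductase Decr1 at -0.13 ± 0.10 and the peroxisomal reductase Decr2 at -0.20 ± 0.11 (adjusted p = 0.473, 0.435 and 0.297).

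All 6 tested peroxisomal genes had negative log2 fold changes, of -0.53 to -0.16. Ehhadh, the peroxisomal bifunctional enzyme and a known PPAR alpha target in mouse liver, had 204, 511 and 579.9 CPM in LOY kidneys and 520.0, 629 and 754 CPM in Control kidneys (lowest, median, highest). LOY animals 10 and 8 were far below the other kidneys, and without these 2 kidneys the log2 fold change of -0.53 ± 0.25 (adjusted p = 0.218) became -0.22. Acox2, the oxidase of branched chains and bile acid intermediates, had 65.9, 84.6 and 123 CPM in LOY kidneys and 101, 109 and 128 CPM in Control kidneys (lowest, median, highest). All LOY kidneys but animal 5 lay below every Control kidney, and the log2 fold change was -0.32 ± 0.13 (adjusted p = 0.181).

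Abcd3, which carries long-chain acyl-CoA into peroxisomes, was at -0.30 ± 0.16 (adjusted p = 0.268), and Hsd17b4, the second bifunctional enzyme, at -0.16 ± 0.09 (adjusted p = 0.297). The thiolases Acaa1a and Acaa1b were at -0.25 ± 0.13 and -0.28 ± 0.17 (adjusted p = 0.265 and 0.311). They are close copies of each other 182582 bases apart on chromosome 9, and counting may have split reads between them.

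Pdk4 encodes a kinase that turns off pyruvate dehydrogenase and so shifts fuel use towards fatty acids. It had 7.99, 25.7 and 51.8 CPM in LOY kidneys and 18.6, 27.6 and 61.8 CPM in Control kidneys (lowest, median, highest). The ranges were nearly as wide in each group, with LOY animal 8 lowest and Control animal 12 highest, and the log2 fold change was -0.22 ± 0.37 (adjusted p = 0.728). Without Control animal 12 it was 0.06. With all kidneys and animal number as a term it was 0.013, and among animals numbered above 10 alone 0.37, so its direction was not stable.

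**Figure D3:**
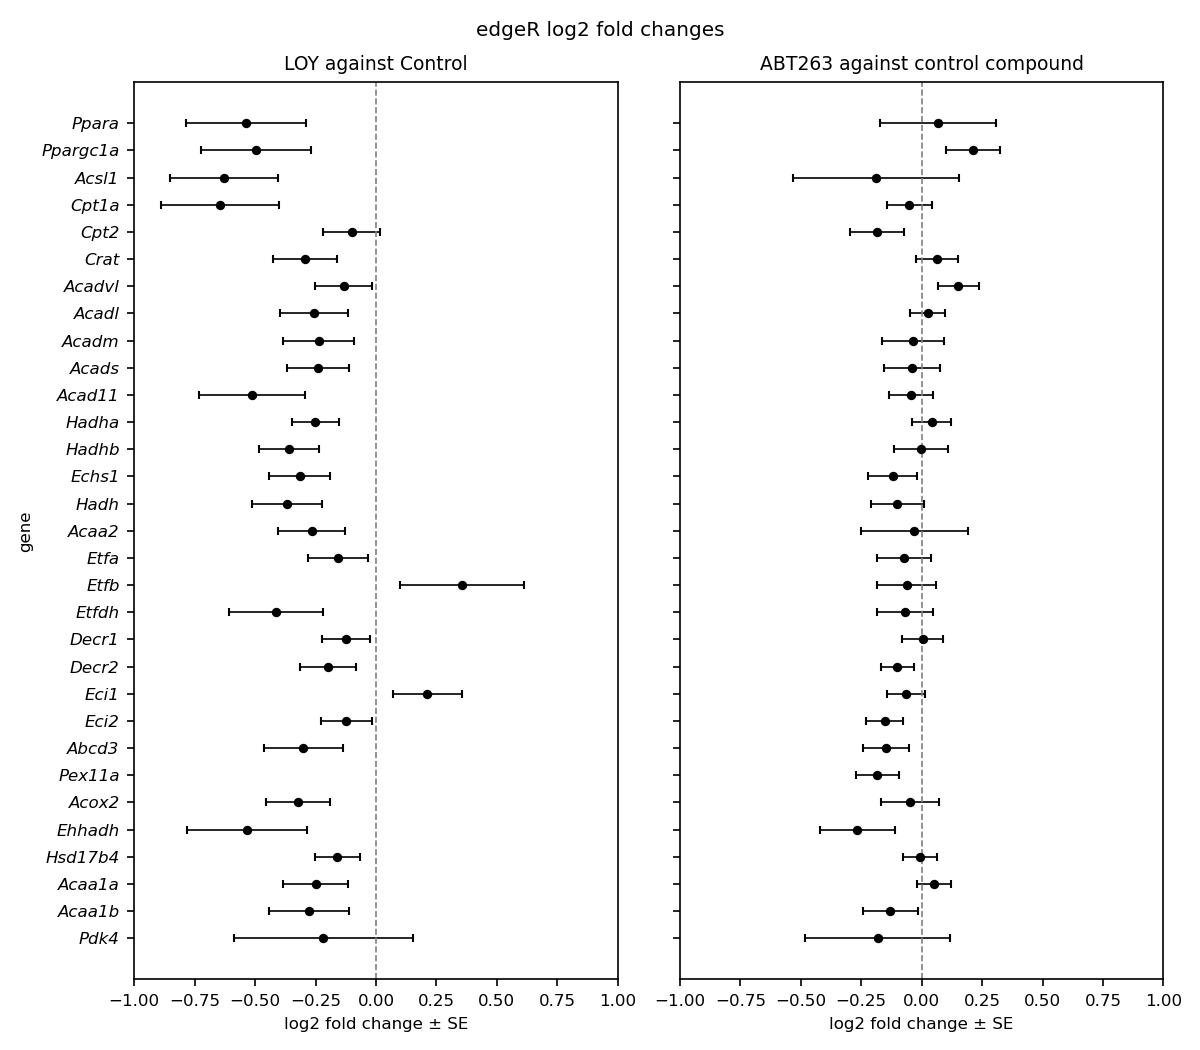
Log2 fold changes (points) with their SE (bars) for LOY against Control kidneys (left) and ABT263 against the control compound (right), 1 gene per line in order of its step in the pathway. On the left 28 of 30 genes lie below 0 and Cpt1a is lowest at -0.65. On the right the genes lie between -0.27 and 0.21 and Pex11a, untested on the left, has a value.

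A wider list of 82 genes around the pathway was examined beside the 31. Of 74 tested in the LOY comparison 0 passed, 63 had negative values and their median was -0.19. Among other oxidation enzymes and carriers 27 of 32 were negative (median -0.16), and the 3 of smallest p were the acyl-CoA dehydrogenase gene Acad12 at -0.74 ± 0.21 (adjusted p = 0.0885), Acad10 at -0.43 ± 0.15 (adjusted p = 0.138) and the fatty acid transporter Cd36 at -0.39 ± 0.16 (adjusted p = 0.178). All 5 ketone body genes were negative (median -0.35). Of them Oxct1, which starts the use of ketone bodies, was at -0.73 ± 0.32 (adjusted p = 0.199) and the thiolase Acat1 at -0.36 ± 0.16 (adjusted p = 0.204).

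Of 18 other PPAR alpha target genes 15 were negative (median -0.20). The smallest p belonged to one that was higher in LOY kidneys, Ucp2, a mitochondrial inner membrane carrier, at 0.70 ± 0.20 (adjusted p = 0.0975). The monoglyceride lipase Mgll was at -0.35 ± 0.11 (adjusted p = 0.112) and the fatty aldehyde dehydrogenase Aldh3a2 at -0.47 ± 0.18 (adjusted p = 0.164). Of 19 partners and cofactors 16 were negative (median -0.19). Rxra, the receptor that pairs with PPAR alpha, had 81.5 to 138 CPM in LOY kidneys and 139 to 170.2 CPM in Control kidneys, so that the groups lay next to each other without overlap. Its log2 fold change was -0.42 ± 0.13 (adjusted p = 0.125). The orphan receptor gene Esrrg was at -0.38 ± 0.16 and the transcription factor gene Gabpa at -0.41 ± 0.19 (adjusted p = 0.182 and 0.218).

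The kidneys differed unevenly. The median log2 deviation of the 30 genes from their mean was -0.01, -0.24, -0.10, -0.56, 0.09 and 0.00 in LOY animals 5, 8, 9, 10, 14 and 18. It was 0.00, 0.12, 0.27, 0.17, 0.08 and 0.19 in Control animals 3, 11, 12, 13, 16 and 17. LOY animal 10 was the lowest of all 12 kidneys for 18 of the 30 genes and LOY animal 8 for 9 of them, while Control animal 12 was the highest for 17. Animals 10, 8, 9 and 18 lay below every Control kidney for 25, 20, 15 and 14 genes, and LOY animals 5 and 14 for 8 and 7. The same counts per kidney were not made over all tested genes, so they cannot be read as particular to the oxidation genes. Without LOY animals 8 and 10 the median log2 fold change was -0.15, and 28 of 31 genes were negative.

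Markers of the tubule segments, like the oxidation genes, lay mostly lower in LOY kidneys. The median deviation of the proximal tubule markers was -0.88 in LOY animal 10, -0.35 in LOY animal 8 and -0.10 to 0.15 in the other LOY kidneys, against 0.01 to 0.34 in Control kidneys. Of 20 proximal tubule markers 17 had negative values and 0 passed (median -0.38), and their summed level was 32253 to 73551 CPM in LOY and 42393 to 46423 CPM in Control kidneys. The highest sum, in LOY animal 8, held 52967 CPM of a single transcript, the androgen-regulated Kap. Of 8 markers of the loop of Henle and distal nephron 6 were negative and 0 passed (median -0.40; 3829 to 7531 CPM summed in LOY, 3916 to 8553 CPM in Control kidneys). All 6 fibroblast and mural markers were positive and 0 passed (median 0.57; 346 to 633 CPM summed in LOY, 227 to 508 CPM in Control kidneys).

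Markers of injury and of immune cells all had positive log2 fold changes. Of 11 tubular injury markers 8 rose in LOY kidneys (median 1.33), with a summed level of 3776 to 9112 CPM in LOY and 1935 to 3831 CPM in Control kidneys. LOY animal 10 was the highest of all 12 kidneys in this list and Control animal 3 the highest Control. With animal number as a term, or without LOY animal 10 or any 1 of Control animals 11, 12, 13, 16 and 17, 0 of the 11 passed (median 1.21 to 1.38), and without LOY animals 8 and 10 together 3 did. Without LOY animal 9 or 14 alone 5 passed. Of 9 macrophage markers 6 rose (median 1.11; 436 to 586 CPM summed in LOY, 229 to 380.3 CPM in Control kidneys). Of these 0 passed with animal number as a term or without Control animal 16 or 17, 1 without LOY animal 10, 2 without Control animal 11 or 12, and 3 without Control animal 13 or without LOY animals 8 and 10 together. Of 6 T cell markers 3 rose (median 1.18; 19.8 to 29.5 CPM in LOY, 9.54 to 12.8 CPM in Control kidneys), and 0 with animal number as a term, without LOY animals 8 and 10 together or without any 1 of LOY animals 5, 9, 10 and 14 and Control animals 11, 12, 13, 16 and 17. The part of the tubule, stromal, injury and immune markers in the differences of the oxidation genes was not tested.

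**Figure D4:**
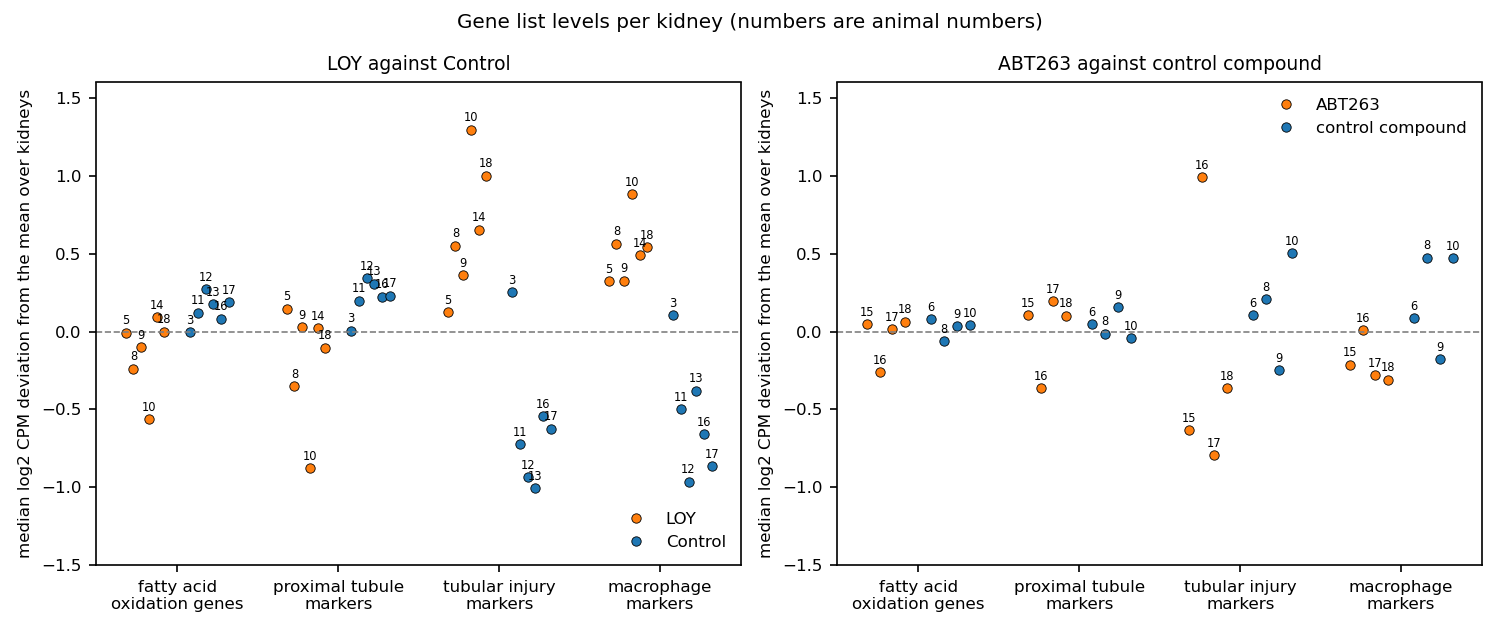
Median log2 CPM deviation from the mean over kidneys of 4 gene lists, 1 point per kidney with its animal number, for LOY (orange) and Control kidneys (blue) on the left and for ABT263 (orange) and the control compound (blue) on the right. LOY animal 10 and ABT263 animal 16 are the lowest points for the oxidation genes (-0.56 and -0.26) and for the proximal tubule markers (-0.88 and -0.36), and the highest for the tubular injury markers (1.30 and 0.99).

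Markers of fat tissue, which also oxidises fatty acids, varied widely among the kidneys of both groups. The 7 white adipocyte markers summed to 0.444 to 199 CPM in LOY kidneys, with animal 10 highest, and to 2.35 to 238 CPM in Control kidneys, with animal 3 highest. The 5 brown adipocyte markers summed to 10.4 to 36.2 CPM in LOY and 8.84 to 88.3 CPM in Control kidneys. Ucp1, which defines brown fat, was at 15.2 CPM in LOY animal 10 and 44.9 CPM in Control animal 3, and at 4.61 CPM or less in the other 10 kidneys. Muscle markers stayed at or below 6.14 CPM and adrenal markers at or below 11.8 CPM in sum. Their part in the result was not tested.

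Animal number was unevenly spread over the groups: LOY animals 5, 8, 9 and 10 and Control animal 3 are numbered 10 or below, and the labels do not say what the number stands for. With LOY kept in the model, 4.16% of all tested genes differed between animals numbered above 10 and those at or below (2.40% were higher), and 4 of the 30 oxidation genes were among the higher ones. These were Ppara (log2 fold change 0.96 ± 0.18, adjusted p = 0.0227), Cpt1a (0.83 ± 0.18, adjusted p = 0.0347), Ppargc1a (0.79 ± 0.18, adjusted p = 0.0390) and Abcd3 (0.51 ± 0.13, adjusted p = 0.0455). Ppara ran from 106 to 180.0 CPM in the 7 animals above 10 and from 59.4 to 83.2 CPM in the 5 others. Cpt1a ran from 451 to 707 CPM in the animals above 10 and from 187 to 378 CPM in the others. The same complete separation held for Ppargc1a, Acad11, Etfdh, Abcd3 and Hsd17b4, 7 genes in all, against 7.87% of all tested genes.

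With number in the model, the LOY difference of the 30 genes had a median of -0.17, 27 were negative, and the lowest adjusted p was 0.584. Among the animals above 10 alone, 2 LOY and 5 Control kidneys, the median was also -0.17 and 27 of 31 genes were negative (lowest adjusted p 0.0557, for Acaa1a, which had 0.0557 to 0.750 over the alternatives). In these animals Ppara averaged 127 CPM in LOY and 149.9 CPM in Control kidneys, and Ehhadh 520.0 CPM in LOY and 638 CPM in Control kidneys. Abcd3 averaged 436 CPM in LOY and 435 CPM in Control kidneys.

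Transcript length went along with these differences. Across the 30 genes the LOY log2 fold change correlated with log2 transcript length at Pearson r = -0.69 (Spearman rho = -0.53), a description over genes that share the same 12 libraries. The 2 genes with positive values, Etfb and Eci1, have the shortest transcripts (893 and 1137 bases), and the longest, Ppargc1a and Cpt1a (6464 and 4317 bases), are among the lowest. Within single kidneys, the deviation of the 30 genes correlated with length at r = -0.41, -0.68, -0.78, 0.09, 0.40 and 0.61 in LOY animals 5, 8, 9, 10, 14 and 18. In Control animals 3, 11, 12, 13, 16 and 17 it was -0.44, 0.43, 0.67, 0.59, 0.19 and 0.66. The trend ran through the whole table and was mostly weaker there: over 14079 genes r was -0.19, -0.45, -0.31, -0.01, 0.17 and 0.30 in the same LOY kidneys and -0.15, 0.24, 0.25, 0.26, 0.24 and 0.27 in the Control kidneys. All 4 animals with a clearly negative slope are numbered 10 or below. LOY animal 10, the lowest kidney, had almost no slope. RNA quality values were not analysed here.

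With a length offset fitted in each kidney, an alternative chosen after seeing the data, the median LOY difference was -0.33, 29 of 30 genes were negative, and the lowest adjusted p was 0.109. Etfb was then at 0.00 and Cpt1a at -0.61. Under it and with number in the model, Ppara (0.91 ± 0.17, adjusted p = 0.0221), Cpt1a (0.72 ± 0.16, adjusted p = 0.0368) and Eci2 (0.38 ± 0.09, adjusted p = 0.0498) were higher above number 10, 3 of the 30 genes, where 2.13% of all tested genes were called (1.05% higher). Ppargc1a and Abcd3 then had adjusted p of 0.0588 and 0.0533.

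The second comparison asks whether ABT-263 changes the kidneys of LOY animals. The oxidation genes differed by small amounts that did not pass the test. Their log2 fold changes ran from -0.27 (Ehhadh) to 0.21 (Ppargc1a) with a median of -0.05, against 0.00 for all 16956 genes tested. One kidney, ABT263 animal 16, lay below the rest in most of the genes.

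By edgeR's quasi-likelihood test 0 of the 31 genes passed an adjusted p of 0.05, and 0% of all tested genes did. At an unadjusted p under 0.05 there were 0 of the 31 genes and 5.91% of all tested genes. DESeq2 and voom called 0 of the 31 genes as well, against 0.26% of all genes by DESeq2 (0.165% lower) and 0.0649% by voom (0.0472% lower). Of the 31 genes 23 had negative values, against 50.6% of all tested genes, and 0 had groups that did not overlap (2.25% of all tested genes were lower and 2.04% higher without overlap). The animals given ABT263 are all numbered above 10 and those given the control compound all 10 or below, so that drug and animal number cannot be told apart.

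Ppara had 45.4, 68.6, 41.9 and 39.9 CPM in ABT263 animals 15, 16, 17 and 18, and 69.6, 39.1, 37.7 and 40.5 CPM in control compound animals 6, 8, 9 and 10. Each group had 1 high kidney, animals 16 and 6, and the log2 fold change was 0.07 ± 0.24 (adjusted p = 0.977). Ppargc1a had 103, 89.6, 116 and 98.2 CPM with ABT263 and 96.1, 85.7, 97.7 and 71.9 CPM with the control compound. Control compound animal 10 was the lowest, the other ranges overlapped, and the log2 fold change was 0.21 ± 0.11 (adjusted p = 0.846).

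Cpt1a had 522, 537, 561 and 495 CPM with ABT263 and 605, 515, 487 and 584 CPM with the control compound, with all ABT263 kidneys inside the range of the control compound (-0.05 ± 0.09, adjusted p = 0.953). Cpt2 had 158, 114, 136 and 141 CPM with ABT263 and 131, 161, 159.8 and 172 CPM with the control compound. ABT263 animal 16 was the lowest, and the log2 fold change was -0.19 ± 0.11 (adjusted p = 0.847).

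**Figure D5:**
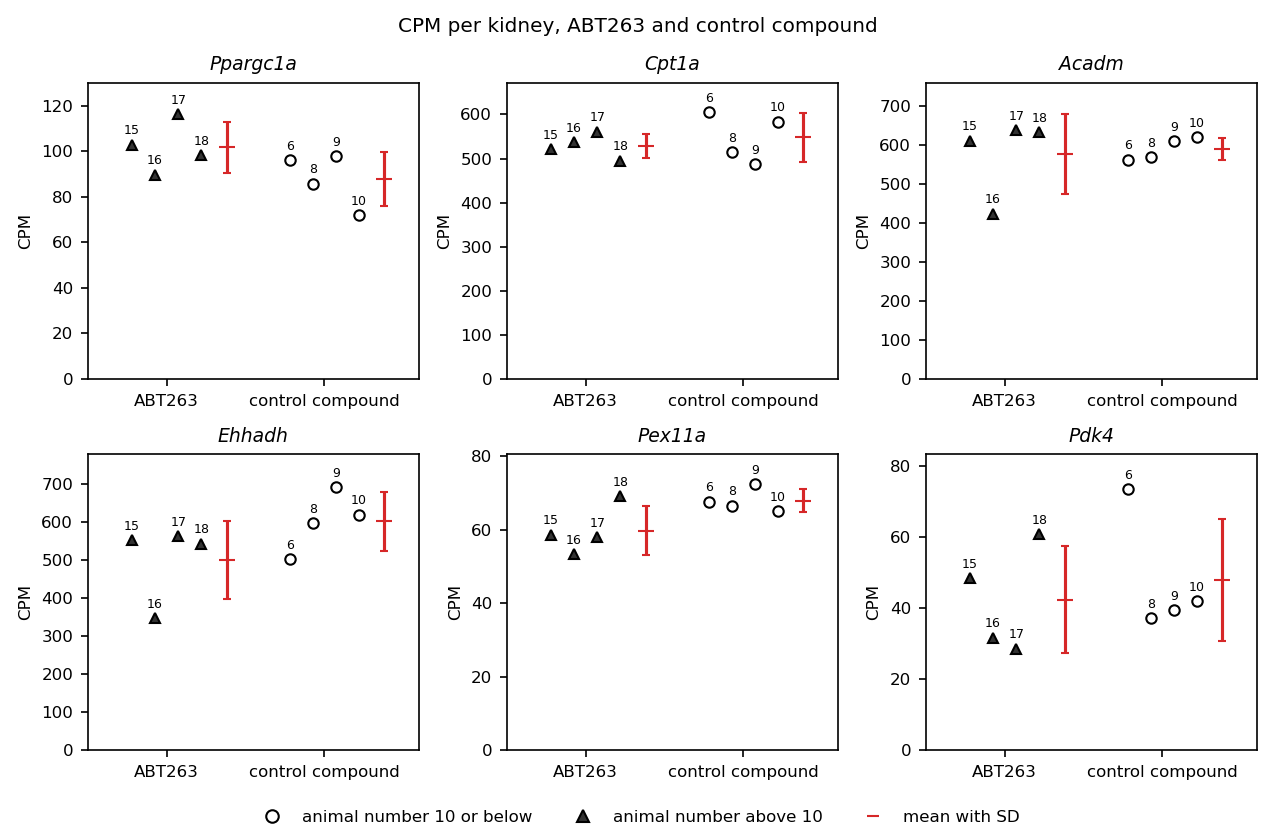
CPM per kidney of 6 of the genes with ABT263 (left) and the control compound (right), each axis starting at 0, with animal numbers beside the points and a red bar for the mean with its SD (n = 4). ABT263 animal 16 is the lowest point for Acadm, Ehhadh and Pex11a, control compound animal 6 is the highest for Pdk4, and the groups overlap for all 6 genes.

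Acadm had 612, 424, 638 and 634 CPM with ABT263 and 563, 570.0, 611 and 621 CPM with the control compound. Apart from animal 16 the ABT263 kidneys were at or above the middle of the control compound kidneys, and the log2 fold change was -0.04 ± 0.13 (adjusted p = 0.978). Acadvl had 172, 145, 149 and 157 CPM with ABT263 and 136, 127, 144 and 154 CPM with the control compound, overlapping in their middle (0.15 ± 0.09, adjusted p = 0.847).

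Among peroxisomal genes, Ehhadh had 553, 348, 563 and 543 CPM with ABT263 and 503, 598, 692 and 620.0 CPM with the control compound. It had the lowest log2 fold change of the genes, -0.27 ± 0.16 (adjusted p = 0.847), with animal 16 far below the others. Pex11a had 58.6, 53.3, 58.0 and 69.0 CPM with ABT263 and 67.5, 66.5, 72.2 and 64.9 CPM with the control compound. Of the ABT263 kidneys 3 lay below every control compound kidney and animal 18 lay within their range (-0.18 ± 0.09, adjusted p = 0.827, the lowest of the 31 genes). Abcd3 had 362, 303, 387 and 388 CPM with ABT263 and 382, 396, 389 and 430.0 CPM with the control compound, so that 2 ABT263 kidneys lay just inside the other range (-0.15 ± 0.10, adjusted p = 0.848).

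The isomerase Eci2 had 87.5, 96.7, 91.5 and 91.6 CPM with ABT263 and 107, 92.7, 99.0 and 109.9 CPM with the control compound. Only animal 16 was above the lowest control compound kidney (-0.15 ± 0.08, adjusted p = 0.831). Decr2 had 62.2, 59.7, 61.5 and 56.7 CPM with ABT263 and 65.6, 63.1, 62.2 and 66.6 CPM with the control compound, the groups meeting at animals 15 and 9 (-0.10 ± 0.07, adjusted p = 0.854). Pdk4 had 48.3, 31.7, 28.6 and 60.8 CPM with ABT263 and 73.4, 37.1, 39.4 and 42.0 CPM with the control compound. Control compound animal 6 was the highest, and the log2 fold change was -0.18 ± 0.30 (adjusted p = 0.946).

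ABT263 animal 16 was the lowest of the 8 kidneys for 18 of the 31 genes and the lowest of its group for 25. These counts were not made over all tested genes. The median deviation of the genes was -0.26 in this kidney, 0.02 to 0.06 in the other ABT263 kidneys and -0.06 to 0.08 with the control compound. The same kidney had the lowest deviation of the proximal tubule markers (-0.36). Its tubular injury markers summed to 21376 CPM, against 1946 to 2730 CPM in the other ABT263 kidneys and 2839 to 4254 CPM with the control compound. Its level of Havcr1, which encodes the injury marker KIM-1, was 735 CPM. Without this kidney the median log2 fold change of the 31 genes was 0.02 and 12 were negative. White adipocyte markers summed to 2.31 to 218 CPM with ABT263, lowest in animal 16, and to 0.570 to 85.1 CPM with the control compound. Of 10 macrophage markers 9 were negative and 0 passed (median -0.45; 389 to 434 CPM summed with ABT263, 425 to 709.5 CPM with the control compound). Of the 10, 6 had an unadjusted p under 0.05 by edgeR, against 5.91% of all tested genes. All 7 T cell markers were negative and 0 passed (median -0.44; 10.3 to 15.2 CPM with ABT263, 10.8 to 26.6 CPM with the control compound). The part of these differences in the values of the oxidation genes was not tested.

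In the wider list 0 of 81 tested genes passed in the ABT263 comparison, 45 were negative and the median was -0.02. Vnn1, a pantetheinase and PPAR alpha target, had 106 to 122 CPM with ABT263 and 124 to 144 CPM with the control compound, without overlap (-0.24 ± 0.08, adjusted p = 0.688). Among oxidation enzymes, Cpt1b, the muscle form of the carnitine transferase, was higher at very low levels of 0.809 to 1.86 CPM with ABT263 and 0.480 to 0.854 CPM with the control compound (1.12 ± 0.35, adjusted p = 0.662). Of the partners, Pparg, the fat cell receptor, was at 0.94 ± 0.36 (adjusted p = 0.791), with its highest levels in ABT263 animals 15 and 18, which also had the highest adipocyte markers.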

How the data were processed

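Total RNA of 20 mouse kidneys was purified with QIAzol reagent and RNeasy columns and, per the labels' protocols, sequenced on an Illumina NovaSeq X. The authors deposited gene counts in 2 tables, with mm10 as the genome build per the submitters' processing notes. Which aligner, counter, annotation and strand mode were used is not given in the sources used here. Counts without a gene, 0.223% to 0.401% of the LOY table, were left out. That table listed no mitochondrially encoded genes, which took 7.91% to 11.1% of the counts of the other. Replicates differed by more than counting noise (lowest ratio of squared differences to their Poisson expectation 4.00 and 3.41 over 30 and 12 pairs). This ratio, taken over the whole library, was 28.3 to 59.6 in pairs with LOY animal 8. It was 16.8 to 49.7 in pairs with LOY animal 10 and 6.27 to 17.6 in the other LOY pairs. Control pairs ran from 4.00 to 15.0. In the second table it was 12.6 to 14.1 in pairs with control compound animal 6 and 3.41 to 7.88 in the others.

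The whole of each table was tested with edgeR 4.0.16 (R 4.3.3) after TMM scaling and filterByExpr (at least 10 counts, total at least 15), by its robust quasi-likelihood F test, with p-values adjusted by Benjamini and Hochberg over all tested genes and a threshold of 0.05. CPM use TMM-scaled totals, log2 deviations a prior count of 2, and each SE was taken from the log2 fold change and its F statistic. DESeq2 1.42.0 and voom in limma 3.58.1 were alternatives. Only the main edgeR fit was tested on simulated data. The genes, the wider and marker lists and the tests were chosen with earlier results of these data known. All 31 genes are named. Levels are given for Ppara, Ppargc1a, Cpt1a, Acadm, Ehhadh and Pdk4 and for the 8 genes of smallest p in each comparison. In the LOY comparison these are the lowest, median and highest, and in the ABT263 comparison the values per kidney. The 3 of smallest p or fewer are named per wider list. Results on a few genes of the wider list are not reported here. Gene positions are from GENCODE M21 (GRCm38); a transcript length was found for 97.6% and 97.5% of tested genes.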

Additional observations from a re-analysis of the deposited data

Results flagged for a closer look

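Within each group of 4 or 6 kidneys, the highest or lowest value was set against the others by Dixon's gap ratio at the 95% level. Of 126 groups of values 12 held a kidney past the limit. Chance alone puts about 1 in 20 independent groups past it. These groups are mostly genes read in the same kidneys and are not independent, so the count cannot be judged against that rate.

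Of the 12, 7 were low values of ABT263 animal 16. These were Acad11 at 170 CPM, Acadm at 424 CPM, Ehhadh at 348 CPM, Etfa at 228 CPM, Etfdh at 130 CPM and Hadh at 283 CPM, and the median log2 deviation of the 31 genes at -0.26. The nearest other ABT263 kidneys were at 204, 612, 543, 311, 185 and 374 CPM for these genes and at 0.02 for the deviation. Control compound animal 6 was high for Acsl1 (532 CPM, next highest 284), Pdk4 (73.4 CPM, next highest 42.0) and Ppara (69.6 CPM, next highest 40.5). LOY animal 10 was low for Crat, at 113 CPM with the next at 178 CPM, and Control animal 3 was high for Etfb, at 613 CPM with the next at 478 CPM.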

How the results depend on the processing

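Of 750 member values under the alternatives of the LOY comparison 13 reversed, and of 527 in the ABT263 comparison 44 did. The median log2 fold change of the genes lay between -0.32 and -0.21 when each LOY or Control kidney was left out, and between -0.10 and 0.02 when each kidney of the ABT263 table was. The number of all genes called with LOY (176) was 105 with library totals alone, 866 with DESeq2, 1062 with voom, 0 with animal number as a term (0 with length offsets as well), 451 among animals above 10 alone, 29 without LOY animals 8 and 10, 698 without these and Control animal 3, and 0 (without Control animal 16 or 17) to 607 (without Control animal 3) when 1 kidney was left out. Of the 30 genes, 0 were called in these settings except 2 with voom (Acsl1 and Cpt1a) and 1 without the 3 kidneys (Acsl1, adjusted p = 0.0481), all lower. Of all tested genes 2.49% were called lower with voom and 1.56% without the 3 kidneys. With ABT263 the number of all genes called (0) was 44 with DESeq2, 11 with voom and 0 to 9 when 1 kidney was left out.

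Reversed with LOY were Cpt2 (0.019), Etfb (-0.015) and Pdk4 (0.013) with number as a term, Cpt2 (0.041), Etfb (-0.15), Eci1 (-0.00703), Abcd3 (0.00299) and Pdk4 (0.37) among animals above 10, Eci1 (-0.013) with length offsets, Etfb (-0.11), Eci1 (-0.032) and Pdk4 (0.000152) with both, and Pdk4 (-0.51 to 0.059) when 1 kidney was left out. With ABT263, Hadhb was 0.016 with upper-quartile factors, 0.012 with totals alone, 0.00196 with a mean of at least 1 CPM, 0.074 with voom and 0.019 with length offsets. Hsd17b4 was 0.0105 with upper-quartile factors, 0.00928 with totals alone and 0.014 with voom. Acaa2 was 0.20 with voom and 0.014 with length offsets, and with voom Acsl1 was 0.15, Acadm 0.024, Acad11 0.018, Etfa 0.0096, Etfb 0.026 and Pdk4 0.022. With 1 kidney of the ABT263 table left out the values ran from -0.13 to 0.15 for Acaa2, -0.084 to 0.028 for Acad11, -0.087 to 0.090 for Acadm, -0.12 to 0.050 for Acads, -0.12 to 0.046 for Acox2, -0.35 to 0.14 for Acsl1, -0.033 to 0.051 for Decr1, -0.12 to 0.034 for Etfa, -0.13 to 0.025 for Etfb, -0.13 to 0.049 for Etfdh, -0.15 to 0.00013 for Hadh, -0.058 to 0.098 for Hadhb, -0.032 to 0.012 for Hsd17b4, -0.41 to 0.097 for Pdk4 and -0.13 to 0.32 for Ppara. The cause was not tested. The length offsets, alone or with number, and the setting without 3 kidneys were chosen after seeing the data. No paired analysis was possible because the groups compared share no animal numbers. Pex11a, at most 1.02 CPM in the LOY table, passed the filter on low counts there only in some settings, and its difference there is not reported.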
